A study of Caenorhabditis elegans with 2 samples.

Results

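Inside the exons of protein-coding genes and away from their promoters, 565 strong peaks of ALY-1 were found on the 5 autosomes. They are the exon share of the 3000 peaks with the highest signal among 30000 candidate peaks called on both replicates together, or 18.8% of those 3000 (exact 95% interval 17.4% to 20.3%). A peak was taken when its summit, the base the authors' peak caller marked as its highest point, lay in an annotated exon. The summit also had to lie outside the window from 1000 bp upstream to 200 bp downstream of every protein-coding gene's 5′ end, and more than 250 bp from any tRNA, snoRNA, snRNA or rRNA gene. The 565 peaks cover 544 separate regions and lie in 486 genes.

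The peaks come from ChIP-seq of Caenorhabditis elegans early embryos of strain OP502, genotype unc-119(tm4063) III; wgIs502, collected from hermaphrodites 0 hours after synchronization by egg bleaching. The insertion wgIs502 adds an ALY-1 fused at its C-terminal end to a GFP-FLAG tag, and chromatin broken by sonication was precipitated with an antibody against GFP. There is 1 group of 2 biological replicates, and no untagged strain was used here. Whole embryos were used, so strong binding in a few cells and weak binding in many cannot be told apart, and peak lists hold no expression values against which the stage could be checked.

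Aly/REF proteins, of which ALY-1 is one, are nuclear adaptors that join messenger RNA as it is made and spliced and hand it to the export receptor. Such a protein can reach chromatin through the RNA being transcribed, so ChIP can recover the DNA of a gene's body as well as that of its start. Exons of the worm genome are richer in G and C than its introns, and among the most GC-rich are those of the collagens, which code for long runs of glycine and proline and build the cuticle that the epidermis secretes.

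Sequences at 10 summits are shown for the contrast between collagen exons and other coding exons, and collagens are more frequent among them than among all strong exon peaks. They are the 6 strongest on chromosomes II to V whose printed stretch is all coding sequence, among them 2 collagens, followed by the next 4 collagens. Each is the summit base with 50 bp on either side from the reference genome (RefSeq copy of WBcel235, the assembly of ce11), written 5′ to 3′ on the strand of the gene's mRNA. Capitals mark CCNGGN, searched on that strand in any frame, in which CCN can code for proline and GGN for glycine. The motif was chosen after the values had been seen, and its reverse complement, NCCNGG, is the same letters shifted by 1 base.
col-108, chrIV:1769184-1769284, plus strand: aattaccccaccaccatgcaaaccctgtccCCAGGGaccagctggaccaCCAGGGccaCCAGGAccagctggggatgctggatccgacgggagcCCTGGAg
dpy-17, chrIII:5108080-5108180, plus strand: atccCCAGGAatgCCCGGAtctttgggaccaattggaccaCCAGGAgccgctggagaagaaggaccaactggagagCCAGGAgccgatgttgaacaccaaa
din-1, chrII:11622770-11622870, minus strand: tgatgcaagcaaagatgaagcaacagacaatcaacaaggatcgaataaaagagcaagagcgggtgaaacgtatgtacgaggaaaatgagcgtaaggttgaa
cfz-2, chrV:3443146-3443246, minus strand: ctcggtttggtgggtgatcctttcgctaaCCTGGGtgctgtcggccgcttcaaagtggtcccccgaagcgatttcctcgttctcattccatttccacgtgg
sfa-1, chrIV:17105731-17105831, minus strand: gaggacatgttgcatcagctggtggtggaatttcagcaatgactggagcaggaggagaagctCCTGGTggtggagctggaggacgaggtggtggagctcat
F47B8.13, chrV:14319213-14319313, minus strand: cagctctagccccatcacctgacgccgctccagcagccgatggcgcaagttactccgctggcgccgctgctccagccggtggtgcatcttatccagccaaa
dpy-4, chrIV:14986029-14986129, minus strand: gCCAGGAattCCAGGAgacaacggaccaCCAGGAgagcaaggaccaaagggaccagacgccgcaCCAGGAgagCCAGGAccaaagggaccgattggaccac
col-122, chrIV:9563846-9563946, plus strand: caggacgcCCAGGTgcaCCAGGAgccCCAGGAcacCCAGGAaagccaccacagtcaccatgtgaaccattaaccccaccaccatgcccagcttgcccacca
col-105, chrIV:1358135-1358235, minus strand: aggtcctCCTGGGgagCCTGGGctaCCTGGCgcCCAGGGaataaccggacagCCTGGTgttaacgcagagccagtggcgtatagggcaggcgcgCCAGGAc
bli-2, chrII:5651683-5651783, minus strand: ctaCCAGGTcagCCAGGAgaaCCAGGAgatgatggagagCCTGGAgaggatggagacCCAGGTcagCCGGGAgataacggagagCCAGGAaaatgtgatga
The 6 collagen sequences hold 4 to 7 copies of the marked motif each, while the other 4 hold 1 or none.

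Signal values chose these peaks, so they are given as a description. They ran from 60 to 190.4 with a median of 69.3, and the peak at rank 3000 had 59.99. The −log10 q-value of the peaks lay between 1.187 and 2.732, and every one of them was 484 bp wide. For comparison, 6646 weaker exon peaks met every other condition but ranked after 3000. The pooled list was made to hold background as well as peaks, so the weaker ones can include places without binding. A second comparison used every 50th exon base that met the conditions on position, 384604 positions in all.

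Strong exon peaks lay in sequence rich in G and C. Over the 100 bp on either side of the summit, their median GC content was 51.7% (95% interval 50.25% to 52.24%, n = 565), against 44.3% in weaker exon peaks and 38.8% at exon positions. GC of at least 60% was found at 15.2% of the strong exon peaks, 1.31% of weaker exon peaks and 0.337% of exon positions. At the other end, 8.85% of the strong exon peaks had GC under 40%, against 28.3% of weaker exon peaks and 56.8% of exon positions. The highest values were in collagens, 70.15% and 69.65% at the pair of peaks in col-105 and 69.65% in col-107. The lowest were 28.36% in the 3′ UTRs of ced-3, the cell-death caspase, and of nsph-1.1, and 29.35% in the 5′ UTR of gldi-8.

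The difference was present in each part of the mRNA. In coding sequence the medians were 52.7% at 492 strong exon peaks, 44.8% at weaker exon peaks and 39.8% at exon positions. In 3′ UTRs they were 39.8% at 41 strong exon peaks, 35.3% at weaker ones and 32.3% at positions, and in 5′ UTRs 49.25% at 32 strong exon peaks, 42.8% at weaker ones and 36.3% at positions. Strong peaks outside exons were also richer in GC than weak ones of their kind. The median was 47.8% at 456 strong intron peaks, against 39.8% at weaker intron peaks, and 46.3% at 647 strong promoter peaks, against 39.8% at weaker promoter peaks. The gap between strong and weaker peaks is thus not limited to exons, and whether GC content itself alters the recovery of DNA in these libraries was not tested.

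Expressed per length of exon at a given GC, the density of strong exon peaks climbed in every step of the scale. Exon sequence with GC under 35% held 12 of them in 4.96 Mb, or 2.42 per Mb (95% counting interval 1.25 to 4.23). Between 45% and 50% the density was 49.8 per Mb (41.3 to 59.7), and between 55% and 60% it was 482 per Mb (393 to 585). Above 65% there were 20 in 0.0105 Mb, or 1905 per Mb (1163 to 2942). Weaker exon peaks also became denser with GC, at 127 per Mb below 35% and 1475 per Mb between 55% and 60%. Their density was then 1400 per Mb between 60% and 65% and 1048 per Mb above 65%. The rank limit took the strong peaks out of the same candidates, so the densities of strong and weaker peaks are not independent. The fall of the weaker ones at high GC is therefore no trait of theirs alone. Among exon peaks in order of signal, median GC was 54.7% at ranks 1 to 500, 50% at ranks 2001 to 3000, 46.3% at ranks 6001 to 10000 and 41.8% at ranks 25001 to 30000. The strongest bin holds only 23 exon peaks and its interval is wide, 46.8% to 59.2%.

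**Figure D1:**
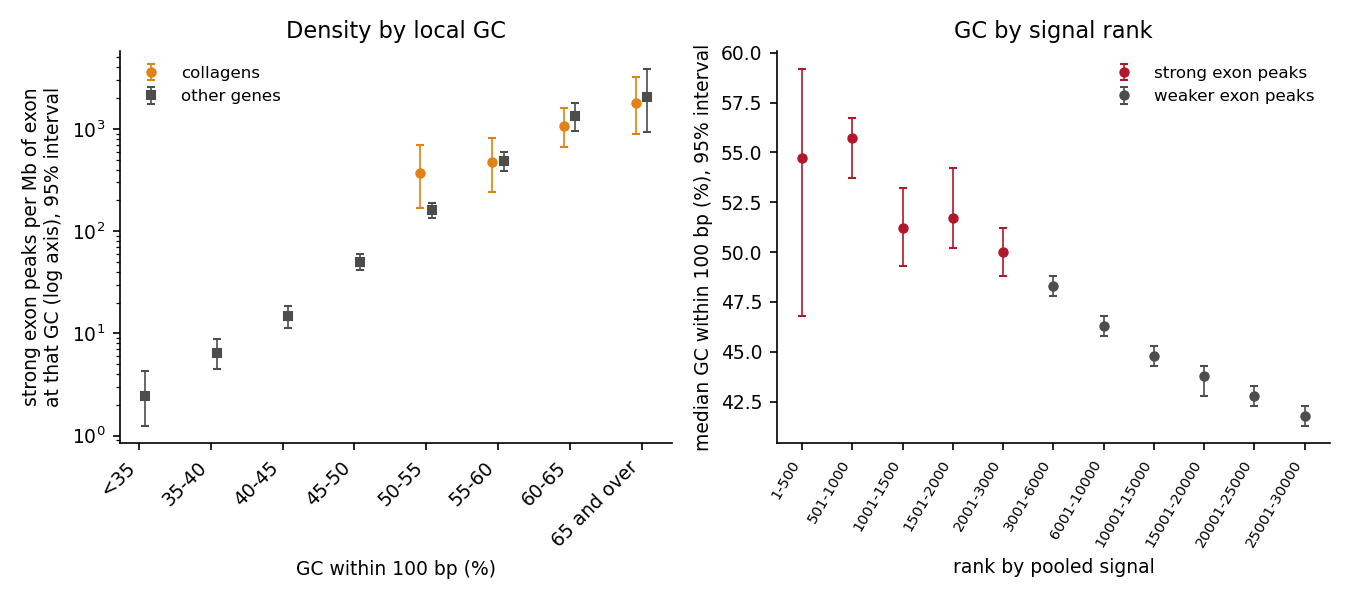
Left: strong exon peaks per Mb of qualifying exon (log axis) by GC within 100 bp (%), in collagens (circles, bins with at least 1 peak) and other genes (squares), with 95% counting intervals. Right: median GC of exon peaks (%, vertical axis) by rank of pooled signal (horizontal axis), strong exon peaks before weaker ones, with 95% intervals. From 55% GC upward the collagen and other densities lie within each other's intervals. GC is uneven over the first bins of rank and then declines, from 51.7% at ranks 1501 to 2000 to 41.8% at ranks 25001 to 30000.

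On the mRNA strand the strong exon peaks held more C and G and less T than the weaker ones. Strong exon peaks had medians of 24.9% C, 26.4% G and 21.4% T, against 21.4% C, 22.4% G and 26.4% T at weaker exon peaks. The 55 collagen peaks had medians of 29.35% A against 10.95% T, and of 32.3% G against 28.9% C. Searched on the sense strand within 100 bp of the summit, CCNGGN was in all 55 strong and 93.6% of 110 weaker exon peaks of collagens, so it was common to both. Over all genes it was in 45.7% of strong exon peaks, in 32.4% of weaker exon peaks and in 23.7% of exon positions. With GC of 50% to under 60% outside the collagens, it was equally common in the 3 sets, at 46.4% of 220 strong exon peaks, 46.4% of weaker ones and 46.2% of positions. This match on GC is coarse. The 220 were 130 at 50% to 55% and 90 at 55% to 60%, in 0.816 Mb and 0.186 Mb of exon. Weaker exon peaks, collagens included, numbered 984 and 312 in these bins. Strong exon peaks thus lay higher within the range than either comparison set, and no finer match was made.

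The motifs GAGGAG and CCACCA, also chosen after the values had been seen, were scored as present or absent. Both were more frequent on the sense strand than on the antisense strand at strong exon peaks, weaker exon peaks and exon positions. GAGGAG was on the sense strand of 20.7% of strong exon peaks and on the antisense strand of 9.56%, against 11.4% and 5.36% in weaker exon peaks and 6.64% and 3.54% at exon positions. CCACCA was on the sense strand of 23% and the antisense strand of 11% of strong exon peaks, against 11.9% and 7.21% in weaker ones and 7.01% and 5.70% at positions. In collagens CCACCA was on the sense strand of 70.9% and the antisense strand of 3.64% of the 55 strong exon peaks, against 50.9% and 2.73% of the weaker ones. With GC between 50% and under 60% outside the collagens, sense GAGGAG was in 21.8% of strong exon peaks (95% interval 16.5% to 27.9%), 17.7% of weaker ones and 16.1% of positions. Sense CCACCA was there in 21.4% of strong exon peaks (16.1% to 27.4%), 20.5% of weaker ones and 19.5% of positions, with all 3 values inside that interval. Antisense GAGGAG was in 15.5% of those strong exon peaks (10.9% to 20.9%), 8.43% of the weaker ones and 8.27% of the positions. Strong exon peaks lie higher within this GC range, and the shares at equal GC were not tested. ATTTTT was less frequent at strong exon peaks, 11.5% on the sense strand, than at weaker ones (23.8%) or positions (32.2%). Within the same GC range outside the collagens it was in 6.36% of strong exon peaks, 6.16% of weaker ones and 6.19% of positions.

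Along the transcript, most strong exon peaks fell in internal exons. Internal exons held 360 of the 565 (63.7%, 95% interval 59.6% to 67.7%), last exons 134 (23.7%, 20.3% to 27.4%), first exons 63 (11.2%, 8.68% to 14%) and genes of a single exon 8 (1.42%). Among weaker exon peaks the shares were 72.4% internal, 21.1% last and 5.91% first, and among exon positions 73.2%, 21.7% and 4.70%. Coding sequence held 492 (87.1%) of the strong exon peaks, 3′ UTRs 41 (7.26%) and 5′ UTRs 32 (5.66%). Weaker exon peaks were at 88.8%, 8.65% and 2.59% in these regions, and exon positions at 87.7%, 9.89% and 2.39%.

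The share in last exons was high in collagens and not in the other genes. Collagen genes have few exons, and the last one held 30 of their 55 strong exon peaks (54.5%, 40.6% to 68%), close to its 52.8% of collagen exon positions. Outside the collagens, the last exon held 20.4% of strong exon peaks (17% to 24.2%), 20.7% of weaker ones and 21.5% of positions, and all 3 values lie inside that interval. First exons held 11.8% of the strong exon peaks outside collagens (9.10% to 14.9%), against 5.89% of weaker ones and 4.68% of positions. With GC between 50% and under 60% the first-exon share was 12.7% of strong exon peaks (8.63% to 17.9%), 6.48% of weaker ones and 5.07% of positions. Strong exon peaks lie higher within that range, and the share at equal GC was not tested.

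Of the 63 strong exon peaks in first exons, 28 lay near an annotated transcript start that the promoter window did not cover. That window was placed at the outermost 5′ end of each gene. The window around some other annotated transcript start held 60 of the 565 strong exon peaks, and of these 28 (46.7%) were in a first exon and 21 (35%) in a 5′ UTR. With those 60 removed, 505 remained, first exons held 6.93% of them (4.87% to 9.51%) and 5′ UTRs 2.18% (1.09% to 3.86%). Weaker exon peaks filtered in the same way had 3.91% in first exons and 1.15% in 5′ UTRs, and exon positions 3.41% and 1.32%. For first exons both comparison values still lay below the interval of the strong exon peaks. For 5′ UTRs both lay inside it. The name "away from promoters" therefore holds for genes as annotated from their outermost end, and not for 60 peaks near internal starts.

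**Figure D2:**
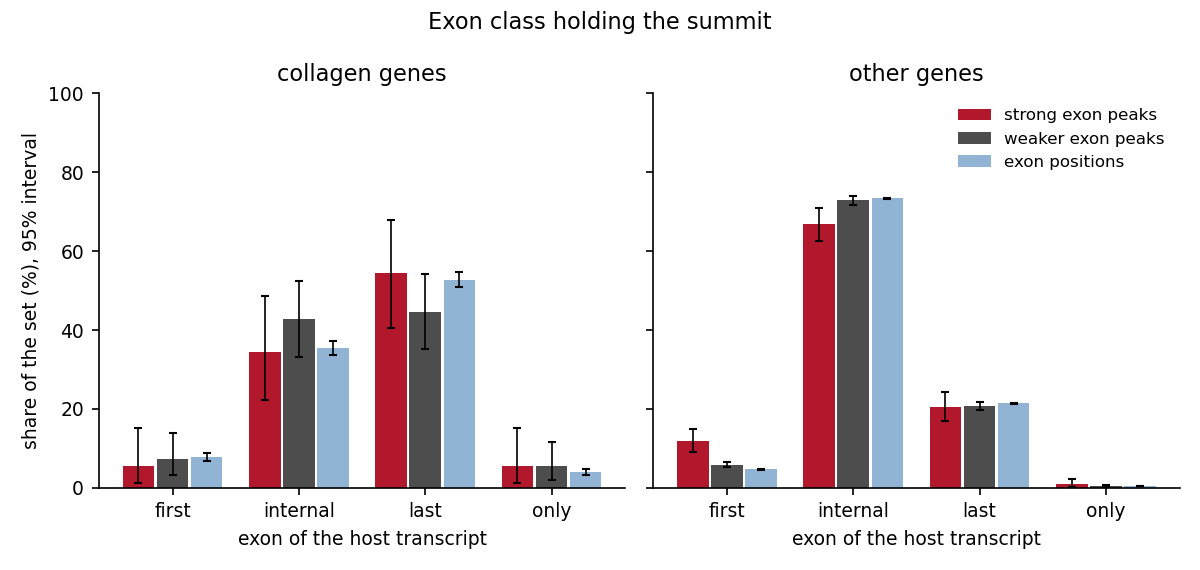
Share of strong exon peaks, weaker exon peaks and exon positions (%, vertical axis from 0) whose summit lies in the first, an internal, the last or the only exon of the host transcript, for collagen genes (left) and other genes (right), with exact 95% intervals. In collagens the last exon leads in all 3 sets, and in other genes the first exon has 11.8% of strong exon peaks, against 5.89% of weaker ones and 4.68% of positions.

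The exons themselves were long. Median length of the exon under the summit was 664 bp (616 to 703) for strong exon peaks, 454 bp for weaker ones and 334 bp for exon positions. The 100 bp on either side of the summit lay wholly in 1 exon for 73.6% of strong exon peaks and 52.4% of weaker ones, and the whole 484 bp peak for 38.1% of strong exon peaks and 21.3% of weaker ones. At matched GC outside collagens the gap was narrower, 618.5 bp (557 to 711) for strong exon peaks, 531 bp for weaker ones and 531 bp for positions. Host transcripts had a median of 6 exons for strong exon peaks and 8 for both comparison sets. In that GC range outside collagens the median was 7 in all 3 sets. With the mRNA cut into 4 equal parts from 5′ to 3′, they held 17.5%, 27.1%, 35.4% and 20% of strong exon peaks, against 19.7%, 28.8%, 29.5% and 21.9% of weaker ones. No gathering at the 3′ end was seen, since 21.8% of strong exon peaks and 19.7% of weaker ones lay under 500 bp from the gene's end.

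Long genes carried the strong exon peaks more often than short ones, apart from the collagens. The 486 host genes had a median length of 4243 bp (3550 to 4984), against 3428 bp for the 4175 genes with weaker exon peaks and 1964 bp for all protein-coding genes of the autosomes. The collagen hosts had a median of 1209 bp, and the other 436 hosts one of 5056 bp (4387 to 5739), against 3490 bp for the other genes with weaker exon peaks. Of genes with at least 1 exon base that could qualify, 3.06% held a strong exon peak, and this share depended on length. It was 0.995% of genes under 1 kb, 2.25% of genes of 2 to 5 kb, 5.62% at 5 to 10 kb, 12.7% at 10 to 20 kb and 18.8% of the 170 genes of 20 kb and longer.

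Longer genes also offer more exon sequence, and per Mb of it the rise was smaller and uneven. The density was 31.9 strong exon peaks per Mb under 1 kb, 34.0 at 1 to 2 kb, 18.8 at 2 to 5 kb, 26.1 at 5 to 10 kb, 52.6 at 10 to 20 kb and 45.8 from 20 kb. The bins of short genes hold most collagens, and without them the density was 26.1 per Mb under 1 kb, 21.8 at 1 to 2 kb and 18.3 at 2 to 5 kb. Gene GC gave the steeper gradient, as the density was 2.52 per Mb in genes with mRNA GC under 38%, 32.4 at 42% to 46%, 211 at 50% to 54% and 429 at 54% and above. With local GC of 50% to under 60% outside collagens, the gene length behind a strong exon peak had a median of 6592 bp (5553 to 8073). It was 6087 bp for weaker exon peaks and 5666 bp for positions, both within that interval. Between chromosomes the density was lowest on V, at 16.5 per Mb, and highest on I, at 37.4 per Mb, with 36.8 on II, 32 on III and 28.7 on IV.

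Some long genes held more than 1 strong exon peak. There were 56 genes with at least 2 strong exon peaks, which together had 135 of the 565. The talin gene tln-1, whose protein joins integrins to actin, had 5 peaks in exons 5, 6, 8, 8 and 9 of 10, with pooled ranks between 551 and 2921. The ankyrin gene unc-44 also had 5, one of them (rank 2801) in its exon of 14975 bp. Next were set-16, an MLL-type histone H3 methyltransferase, and fasn-1, fatty acid synthase, with 4 each, and din-1 was the first by rank of the genes with 3. All 4 peaks of set-16 lay in exons 10 to 13 of 15, with GC between 47.76% and 59.7%, and the 4 of fasn-1 had GC between 42.29% and 49.25%. The longest hosts were the cadherin gene hmr-1 (58913 bp), the spectraplakin gene vab-10 (57568 bp) and the afadin gene afd-1 (49607 bp).

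Gene families were counted over 26 lists of gene names, against the background of 3.06% of qualifying genes with a strong exon peak. The collagens of the cuticle and basement membrane had the highest share among lists of more than 10 genes, with 50 of 146 qualifying genes (34.2%, 26.6% to 42.5%). They held 55 strong exon peaks, 9.73% of the total, in 0.683% of the exon positions, which is 417 per Mb of qualifying exon (314 to 543) against 29.2 per Mb over all genes. A further 58 collagen genes had weaker exon peaks only, and 38 had no exon peak. Among the hosts were genes known from body-shape mutants, dpy-17 (rank 215), dpy-4 (rank 485), bli-2 (rank 742), sqt-3 (rank 795), dpy-10 (rank 843), lon-3 (rank 1081) and rol-8 (rank 1636), of which dpy-17, dpy-4 and bli-2 were picked by rule and the others after their values had been seen. The collagen share of exon peaks was 17.4% at ranks 1 to 500 (4 of 23), 9.89% over the next 500 ranks and 11.7% at ranks 1001 to 1500. It was 9.82% at ranks 1501 to 2000, 8.05% at ranks 2001 to 3000, 4.39% at ranks 3001 to 6000 and 1.02% at ranks 25001 to 30000.

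Set beside other exons of the same local GC, collagen exons were similar in density from 55% upward. Between 50% and 55% their density was higher, with intervals that overlap. In sequence of 60% to 65% GC there were 23 collagen peaks in 0.0218 Mb, or 1055 per Mb (669 to 1583), and 1323 per Mb in other genes (958 to 1782). Between 55% and 60% the densities were 469 per Mb in collagens (242 to 819) and 484 per Mb in other genes (389 to 595). Between 50% and 55% the collagens had 367 per Mb (168 to 696) from only 9 peaks, against 159 per Mb (133 to 189) in other genes. Below 50% GC no collagen held a strong exon peak, in sequence so short that its upper limits were 226 per Mb or more. Counted by gene instead, 41.8% of 55 collagens with mRNA GC of 54% or more held one (28.7% to 55.9%) and 26.2% of 61 other genes (15.8% to 39.1%). Between 50% and 54% the shares were 37% of 46 collagens (23.2% to 52.5%) and 15.1% of 337 other genes (11.5% to 19.4%), and between 46% and 50% they were 30.4% of 23 collagens (13.2% to 52.9%) and 11.3% of 1351 other genes (9.68% to 13.1%). The collagen share was thus the higher one in each of these bins of mRNA GC, and between 46% and 54% the intervals do not overlap. Between 42% and 46% they overlap, with 14.3% of 21 collagens (3.05% to 36.3%) and 3.88% of 3587 other genes (3.27% to 4.56%). The 1 collagen with mRNA GC of 38% to 42% held no strong exon peak. Within the family, median mRNA GC was 53.8% (51.66% to 54.59%) in collagens with a strong exon peak. It was 50.7% (49.14% to 53.09%) in those with weaker ones only and 52% (50.18% to 55.8%) in those with none. These intervals overlap.

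Large extracellular and cytolinker proteins, the scaffolds that tie cells to matrix and cytoskeleton, had 5 hosts among 10 qualifying genes (18.7% to 81.3%). The genes are very long, and per Mb of qualifying exon the list had 78.1 strong exon peaks (40.4 to 137), above the 29.2 over all genes. Over all genes of 10 to 20 kb the density was 52.6 per Mb and from 20 kb 45.8, both inside that interval. The hosts were vab-10, unc-44 and the laminin subunits epi-1, lam-1 and lam-3, of which the laminins were named after their values had been seen, and they held 12 strong exon peaks. Q/N-rich and abu proteins had 7 of 58 genes (12.1%, 4.99% to 23.3%), led by pqn-41 at rank 761, and 103 per Mb (46.9 to 195). Their median mRNA GC was 46.2%. Over all genes with mRNA GC of 46% to 50% the values were 11.6% and 91.1 per Mb, both inside those intervals. Cuticlins, non-collagen proteins of the cuticle, had 2 of 32 (6.25%, 0.766% to 20.8%) and 39.9 per Mb (4.83 to 144). These were cut-2 at rank 723 with 66.17% GC and noah-2 at rank 821 with 50.25%. Hedgehog-related proteins and patched-related receptors had 3 of 70 (4.29%, 0.893% to 12%), grl-25, ptr-12 and qua-1, and 27.1 per Mb (5.59 to 79.2). For cuticlins and for this list the intervals include the values over all genes, 3.06% and 29.2 per Mb.

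Genes for RNA handling and translation gave small counts. SR proteins, splicing regulators, had 2 of 8 (3.19% to 65.1%) and 321 per Mb (38.9 to 1161), rsp-1 at rank 1043 and rsp-8 at rank 1132. Their median mRNA GC was 48.1%. Over all genes with mRNA GC of 46% to 50% the density was 91.1 per Mb, inside that interval. RNA helicases had 3 of 27, cgh-1, eif-4A3 and rha-1, and eif-4A3 encodes the helicase of the exon junction complex that marks spliced mRNA. Cytosolic ribosomal proteins had 4 of 44 (9.09%, 2.53% to 21.7%), led by rps-6, whose summit was in the 3′ UTR. Their qualifying exons are short, and per Mb the 4 peaks came to 303 (82.5 to 775), above the 29.2 over all genes, at a median mRNA GC of 50.2%. Over all genes with mRNA GC of 50% to 54% the density was 211 per Mb, inside that interval. Translation factors had 3 of 33, eef-1A.1 at rank 963, eef-2 and eif-4A3. The lists go by gene name, so eif-4A3 is counted both here and among the helicases. Chaperones had 2 of 47, hsp-1 at rank 585 and hsp-90 at rank 2239. Nucleoporins had 2 of 26, npp-16 and npp-23. Counted by gene, the intervals of the helicases, ribosomal proteins, translation factors, chaperones and nucleoporins include the background of 3.06%.

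Several large lists lay below the background. Chemoreceptors, the largest list, had 2 hosts of 1271 (0.157%, 0.0191% to 0.567%), srh-2 and srw-85. Their median mRNA GC was 36.7%, and among all genes with mRNA GC under 38% the share was 0.205%, so it was not low for genes of such GC. F-box proteins had 1 of 304 (0.00833% to 1.82%) and nuclear hormone receptors 2 of 244 (0.0994% to 2.93%), at median mRNA GC of 37.5% and 39%. Among all genes the share was 0.205% at mRNA GC under 38% and 1.13% at 38% to 42%, inside the respective intervals. C-type lectins had 3 of 232, with an interval of 0.267% to 3.73% that includes the background. Cytochromes P450 and UDP-glucuronosyltransferases had 0 of 130, MATH and BTB proteins 0 of 85, major sperm proteins 0 of 32, maternal RNA-binding proteins 0 of 25, core and linker histones 0 of 11 and vitellogenins 0 of 1, and their upper limits ran from 2.80% to 97.5%. Of these upper limits only that of the cytochromes and transferases, 2.80%, is below the background. Their median mRNA GC was 37.5%, and the share of 0.205% among all genes with mRNA GC under 38% is below that limit. For genes of such GC their count was therefore not shown to be low. Lists with a single host and an interval that includes the background were homeobox proteins (ceh-43, of 59), neuropeptides and insulins (nlp-40, of 97), ubiquitin and proteasome genes (ubq-1, of 29), tubulins and actins (tbb-2, of 16) and myosins (nmy-2, of 20). Taking all lists as one, 95 of the 486 hosts were in them (3.11% of listed genes) and 391 in none (3.04% of unlisted genes), so most hosts belong to no list used here.

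**Figure D3:**
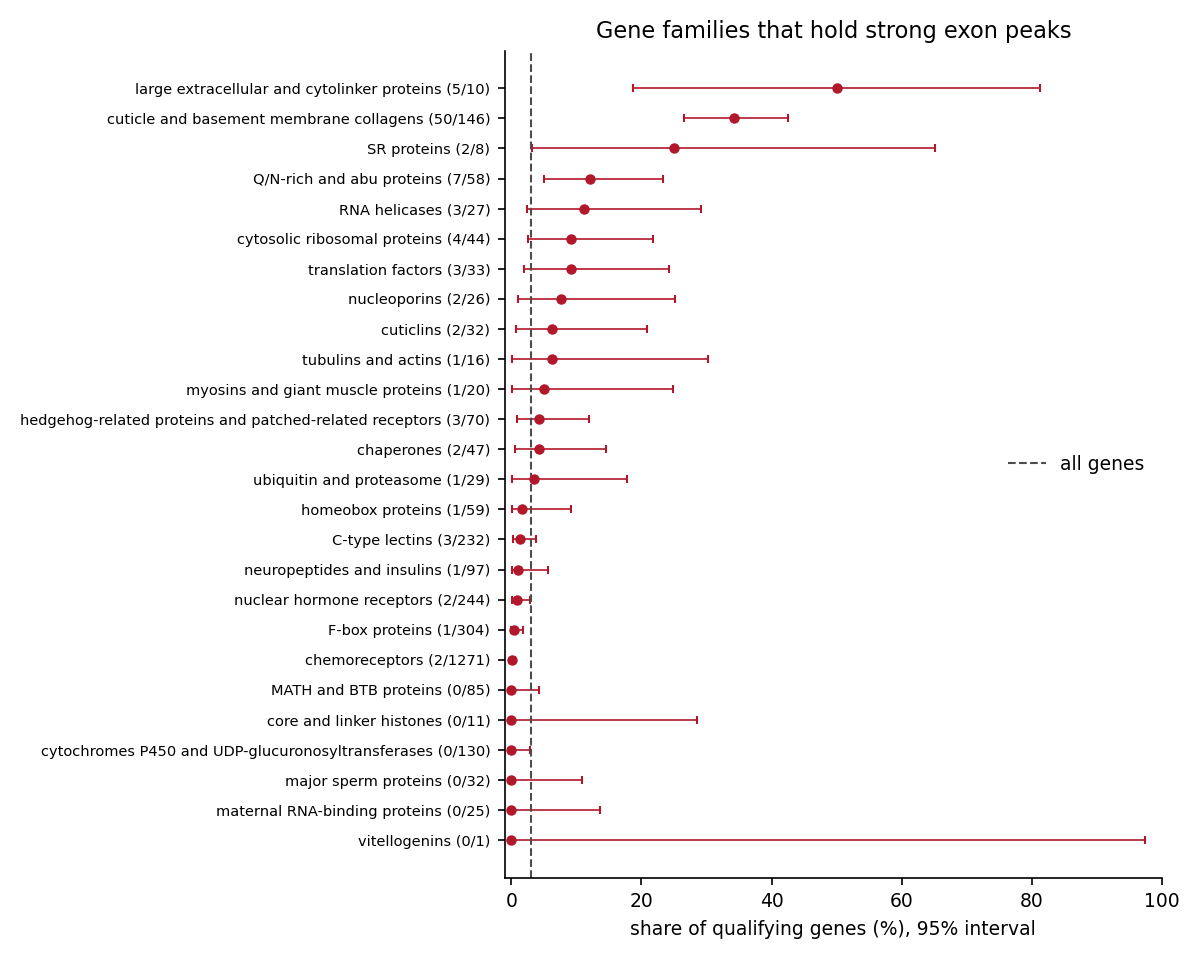
Genes holding at least 1 strong exon peak as a share of the genes of each list with an exon base that could qualify (%, horizontal axis, exact 95% intervals), with both counts in brackets. The dashed line is the share among all such genes, 3.06%, and the collagens lie far to its right at 34.2% while chemoreceptors lie to its left at 0.157%.

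At the top of the list stood a variety of genes. R119.3 (rank 102, signal 190.4) had its summit in exon 2 of 5 with 45.27% GC, and its peak ranked 132 in replicate 1 and 94 in replicate 2. After it came the collagens col-108 (rank 212, signal 133.0, ranks 224 and 216 in the replicates) and dpy-17 (rank 215, signal 131.9, ranks 217 and 280). map-1, a methionine aminopeptidase gene, was at rank 232, and F28H1.1, of a single exon, at rank 279. din-1, encoding a co-repressor of the nuclear receptor DAF-12, was at rank 315 in exon 16 of 21. The remainder of the 20 strongest included cfz-2, a Frizzled receptor of Wnt signalling (rank 348), sfa-1, splicing factor 1, which recognises the branch point (rank 375), rsy-1 (rank 418), let-526, a subunit of SWI/SNF chromatin remodelers (rank 444), cpt-1, carnitine palmitoyltransferase (rank 449), and gbf-1, an exchange factor for ARF (rank 471). Of these 20, 12 were in internal exons, 6 in last exons and 2 in genes of a single exon, and their GC ran from 34.33% to 66.17%.

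The lowest GC among those 20 belonged to aly-1 itself, with its summit in the last of 2 exons, at rank 427 with a signal of 106.0. Its peak ranked 459 in replicate 1 and 1737 in replicate 2. The strain carries additional aly-1 sequence in its transgene, and whether those copies add to the signal was not tested.

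The replicates ranked the same places differently. The pooled summit lay in a candidate peak of both replicates for 554 of the 565 strong exon peaks (98.1%, 96.5% to 99%), beside 98.5% of all 3000 strongest peaks. The pooled list was called on the same reads, so this overlap is a description. Peaks holding the summits had a median rank of 2414 (2104 to 2633) in replicate 1 and 1875 (1761 to 2124) in replicate 2. Both ranks were within the first 3000 for 203 strong exon peaks (35.9%, 32% to 40%), against 44.1% of strong intron peaks and 47.3% of strong promoter peaks. Overlap with the authors' 881 peaks that passed the irreproducible discovery rate procedure was found for 97 (17.2%, 14.1% to 20.5%), beside 33% of the 3000 strongest and 4.39% of all 30000. The word "strong" thus refers to pooled rank, and most of these peaks did not pass the authors' final threshold.

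**Figure D4:**
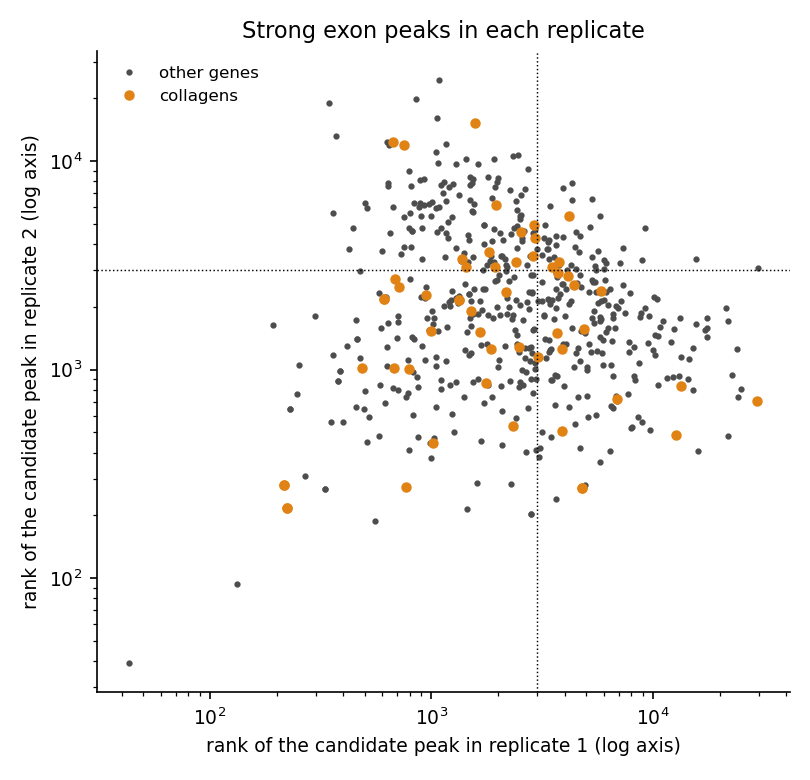
Rank of the candidate peak that holds each strong exon peak's summit in replicate 1 (horizontal axis) and replicate 2 (vertical axis), both log axes, for the 554 peaks found in both, with collagens as large circles and other genes as small dots. Dotted lines mark rank 3000, and 203 peaks lie below it on both axes, in the lower left.

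The 203 peaks strong in each replicate had a median GC of 53.7%, above the interval of 50.25% to 52.24% for all 565. The last exon held 26.1% of them, their host genes had a median length of 4944 bp, and 20 collagen genes were among the hosts. Of the 55 collagen peaks, 24 (43.6%, 30.3% to 57.7%) were among them, and 16 (29.1%, 17.6% to 42.9%) overlapped the thresholded set. Applied to replicate 2 alone, the rule gave 596 peaks with 45 collagen hosts, and to replicate 1 alone 557 with 42. The widest gaps between replicates were at zyg-1, a centriole-duplication kinase gene (ranks 29919 in replicate 1 and 3090 in replicate 2), at the collagen dpy-14 (29417 and 707) and at gldi-8 (24913 and 810). A replicate's peak can hold several pooled summits, as at col-108, whose second peak, at pooled rank 2617, shares its replicate ranks with the first.

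At the edge of the rule, the last peaks taken were in ubr-5, an E3 ubiquitin ligase gene (rank 2993), spsb-1 (rank 2994) and Y116A8C.10 (rank 2998), with signals of 60.02, 60.02 and 60. The first ones left out were in vab-10 (rank 3011, signal 59.87), T28D6.4 (rank 3018, 59.81) and sma-1 (rank 3019, 59.8). Signal steps there are too small to separate the peaks on either side.

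Where a sequence has a close copy, the placement of reads is uncertain. Of the strong exon peaks, 25 (4.42%, 2.88% to 6.46%) had another match in the genome for the summit and the 50 bp on either side, at 90% identity or more over at least 80 bp, against 3.43% of weaker exon peaks. The interval includes the weaker share, so these shares were not told apart. The strong share was 2.18% when the rule was applied to replicate 2 alone and 4.31% with replicate 1 alone, and no weaker share was computed for a single replicate. Among the 25 were 6 collagen peaks (in col-133, col-119, col-95, col-43, col-108 and col-96, named after their values had been seen), ssq-1, eef-1A.1, grl-25, srw-85 and ubq-1, whose gene is made of ubiquitin repeats. The sequences in lips-15 and W09D10.5 had 336 and 134 further matches. A different non-coding gene or pseudogene lay within 250 bp of 21 strong exon peaks (3.72%), against 2.71% of weaker ones, and 1 summit lay in exons of more than 1 gene.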

How the data were processed

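ChIP-seq of tagged ALY-1 was available as peak lists for 2 biological replicates of 1 group, grouped by the replicate numbers in the labels. Per the file listings deposited with the samples, the authors called a candidate list on each replicate and on both together, each against the same control alignment, and a final set passing the irreproducible discovery rate procedure. The signal value of a peak is a score from the authors' caller, and the deposited q-value is given as −log10. The sources used here give no aligner, caller, version or threshold, and no depth from which the precision of 1 peak could be judged. The ce10 lists were not used.

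Exons, UTRs and 5′ ends came from Ensembl release 115 for WBcel235, and bases from the RefSeq copy of that assembly. The host transcript was the one with the longest coding sequence among those whose exon holds the summit. A gene could qualify if at least 1 exon base met the conditions on position. Copies were sought with BLAST 2.17.0 (word size 11). Motif and copy searches covered reference sequence only. Intervals of shares are exact Clopper-Pearson, of medians from order statistics and of densities exact Poisson, all at 95%, for counting error only. Neighbouring positions and peaks of 1 gene are not independent. No test was made, since the peaks were chosen by signal and there is 1 group.

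The peaks, gene lists and motifs were chosen with earlier results of these data known, and the pattern for RNA helicases was tightened afterwards. Named genes were the 20 strongest, up to 3 per family list, the 3 nearest the limit on each side, the 3 with the widest rank gap, the 5 genes with most peaks, the 3 highest and 3 lowest in GC, and the 3 longest hosts. Alternatives tried were other numbers of top peaks, promoter windows, RNA gene distances, GC windows, overlap and copy rules, and each replicate alone. Exon placement and the intervals were tested on simulated data. Tables were made with pandas 2.3.3 and numpy 2.4.6 in Python 3.11.15, intervals with scipy 1.17.1 and figures with matplotlib 3.10.9.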

Additional observations from a re-analysis of the deposited data

How the results depend on the processing

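Of 98 alternative values, 71 stayed near the reported one and 27 moved. The alternatives on every transcript start, on collagens left out, on the count of collagen hosts and on rank in each replicate, and the values at matched GC, were chosen after seeing the data. With the 1500 strongest there were 217 exon peaks, 42 hosts in family lists, 22 collagen hosts, a median gene length of 5068 bp, a median GC of 53.2%, 99.5% in both replicates and 41.5% in the thresholded set. With the 6000 strongest these were 1317 peaks, 166 listed hosts, 77 collagen hosts, 49.8% GC, 93.8% and 7.67%. A promoter window of 2000 bp upstream to 500 bp downstream gave a median gene length of 5860 bp, and leaving out collagens 5056 bp. Median GC was 52.5% over 50 bp on either side of the summit, 48.7% over 250 bp on either side and 48.8% over the whole peak. Presence in both replicates was 99.5% by any overlap, 80.7% with summits within 100 bp and 35.9% among the 3000 strongest of each; that last condition left 203 peaks, 20 collagen hosts and a median GC of 53.7%. Close copies were found for 12.2% at 80% identity and 0% at full identity over the whole stretch. Using 1 replicate alone gave 2.18% to 4.31% with a copy, 22.5% to 25% in the last exon, gene lengths of 4229 to 4534 bp and GC of 50.2% to 51%. The list from replicate 2 alone held 66.4% of the reported peaks and that from replicate 1 alone 56.6%. No paired analysis was possible because there is 1 group. Depth is unknown, the weaker peaks include background, and the control and reads were not used here, so signal at GC-rich exons could not be set against input.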
